A study of Mus musculus with 17 samples.

Results

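RGS proteins (regulators of G protein signalling) are followed here through 7 genes, Rgs2, Rgs3, Rgs4, Rgs5, Rgs7, Rgs10 and Rgs16, taken by their symbols from a table of raw RNA-seq counts that holds 20 RGS genes among 21640 genes. All 7 were found and all 7 passed the filter on low counts. The table covers 17 mouse libraries in 4 groups. Ai47 aSMC (6 libraries, replicates 1 to 6) are EGFP-positive arteriolar smooth muscle cells (aSMCs) sorted from SMACreER:Ai47 mice, and Ai14 aSMC (2 libraries, replicates 7 and 8) are tdTomato-positive aSMCs sorted from SMACreER:Ai14 mice. In both lines a tamoxifen-dependent Cre under a smooth muscle actin promoter switches on the reporter. Astrocyte (3 libraries) are tdTomato-positive cells sorted from hGFAPCreER:Ai14 mice, where a GFAP promoter drives the Cre, and cortex (6 libraries) is cortical homogenate that the labels call WT. For the Ai47 sort the study's methods give adult mice, tamoxifen 1 month earlier, enriched cerebral vessels with few capillaries and removal of CD31-positive endothelial and CD45-positive immune cells, and they take the cortex from the same dissociated brains. The general schedule in the methods is tamoxifen in adults at least 1 month ahead of in vivo experiments, bulk RNA-seq among them, but the Ai14 aSMC and astrocyte libraries are not listed by name. Cortex and sorted aSMC data are described as from 6 mice each, the aSMCs in one place as from SMACreER:Ai14 and elsewhere as from SMACreER:Ai47 mice, and groups here follow the labels. The labels tie no library to a mouse and nothing says that the Ai14 aSMC or astrocyte libraries came from separate mice, so the spread that p-values measure may be technical.

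A G protein-coupled receptor loads its G alpha subunit with GTP, and an RGS protein speeds up the hydrolysis of that GTP, which shortens the signal. In arterioles the receptors for noradrenaline, endothelin and other constrictors work through Gq and Gi, so RGS proteins of the muscle cell act as brakes on tone. Rgs2, Rgs3, Rgs4, Rgs5 and Rgs16 belong to the R4 subfamily, most of whose members are small proteins that act on Gi/o and Gq, with Rgs2 preferring Gq. Rgs7 belongs to the R7 subfamily, which pairs with the G beta subunit Gnb5 and is known mainly from neurons, and Rgs10 is a small R12 protein known from neurons and microglia. Rgs5 is also a textbook marker of pericytes and vascular smooth muscle.

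Of the 7 genes, 5 lie on chromosome 1 (GRCm38, GENCODE M21). Rgs5 (ENSMUSG00000026678.10, chr1:169655501-169695813, plus strand) and Rgs4 (ENSMUSG00000038530.11, chr1:169741477-169747642, minus strand) are next to each other among the RGS genes, with their 3' ends 45.7 kb apart. Rgs16 (ENSMUSG00000026475.7, chr1:153740349-153745468, plus strand) has Rgs8 as its nearest RGS gene, 40.0 kb away. Rgs2 (ENSMUSG00000026360.9, chr1:143999338-144004161, minus strand) and Rgs7 (ENSMUSG00000026527.13, chr1:175059087-175492500, minus strand) complete the set on that chromosome. Rgs3 (ENSMUSG00000059810.18) is at chr4:62559847-62704001 on the plus strand, and Rgs10 (ENSMUSG00000030844.11) is at chr7:128373621-128418758 on the minus strand. All 7 are protein-coding, with 1711 (Rgs10) to 10801 (Rgs3) bases of exon.

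Promoters are shown for Rgs5, Rgs4 and Rgs16, picked for sharing a CCAAT box among the 4 genes called higher in both aSMC groups than in astrocyte, and for Rgs7, the fourth, which has none and was lower in every sorted group than in cortex. Each runs from 250 bases before to 50 after the RefSeq start on GRCm38.p6, 5′ to 3′ on the gene's strand. Capitals mark CCAAT or its reverse complement ATTGG, and TATAAA or ATAAAA on the coding strand. The regions are chr1:169655251-169655550 (plus) for Rgs5, chr1:169747593-169747892 (minus) for Rgs4, chr1:153740103-153740402 (plus) for Rgs16 and chr1:175492496-175492795 (minus) for Rgs7.
Rgs5: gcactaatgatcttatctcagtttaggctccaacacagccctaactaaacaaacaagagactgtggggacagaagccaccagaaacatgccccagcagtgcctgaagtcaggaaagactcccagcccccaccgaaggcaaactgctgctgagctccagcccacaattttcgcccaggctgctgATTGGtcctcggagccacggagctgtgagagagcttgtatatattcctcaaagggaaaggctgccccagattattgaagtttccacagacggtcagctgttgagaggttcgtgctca
Rgs4: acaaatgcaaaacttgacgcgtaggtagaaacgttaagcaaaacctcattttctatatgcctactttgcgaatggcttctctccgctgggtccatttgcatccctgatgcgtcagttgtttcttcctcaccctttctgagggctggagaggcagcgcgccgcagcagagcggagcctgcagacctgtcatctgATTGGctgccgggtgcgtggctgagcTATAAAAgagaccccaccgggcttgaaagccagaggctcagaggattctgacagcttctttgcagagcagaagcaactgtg
Rgs16: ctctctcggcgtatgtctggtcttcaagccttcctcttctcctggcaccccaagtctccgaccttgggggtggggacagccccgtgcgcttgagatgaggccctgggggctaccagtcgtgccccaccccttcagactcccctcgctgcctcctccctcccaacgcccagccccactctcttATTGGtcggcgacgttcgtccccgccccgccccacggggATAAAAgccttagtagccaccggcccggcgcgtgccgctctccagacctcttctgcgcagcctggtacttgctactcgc
Rgs7: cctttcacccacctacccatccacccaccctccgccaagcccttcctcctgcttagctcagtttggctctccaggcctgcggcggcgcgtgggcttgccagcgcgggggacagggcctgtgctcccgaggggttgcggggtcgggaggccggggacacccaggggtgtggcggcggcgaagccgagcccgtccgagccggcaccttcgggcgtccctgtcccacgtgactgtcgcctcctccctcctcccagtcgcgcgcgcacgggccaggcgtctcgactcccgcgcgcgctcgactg
The CCAAT box began 67 bases before the start in Rgs5, 57 in Rgs4 and 68 in Rgs16, each time as ATTGG. A share of 37.4% of the 32851 promoter entries of the same length hold a CCAAT box on either strand. Rgs4 also has TATAAA and the overlapping ATAAAA, which begin 31 and 30 bases before the start, and Rgs16 has ATAAAA beginning 29 bases before it. TATAAA or its reverse complement TTTATA is present in 13.6% of all entries, ATAAAA or TTTTAT in 18.5%, and a CCAAT box together with either in 9.7%. The Rgs5 window holds neither of these A-rich motifs. The GC box (GGGCGG or CCGCCC), which 35.7% of entries hold, occurs in the Rgs16 window and not in the other 3 shown, and the core of the cAMP response element (TGACG or CGTCA), which 20.8% hold, occurs in that of Rgs4. Rgs2 has a CCAAT box too, 94 bases before its start. The windows of Rgs7 and Rgs10 hold neither a CCAAT box nor the A-rich motifs and are rich in G and C, at 73.3% and 76.0%, against a median of 52.7% over all entries. The CArG box, the serum response element core that many smooth muscle contractile genes carry, was in none of the 8 windows of the 7 genes (Rgs3 has a pair of start sites) and in 1.6% of all entries. The motifs were chosen after the sequences had been seen, and a match describes letters, not binding.

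Library totals were 41499087 to 53643624 counts in Ai47 aSMC, 14870507 and 14979228 in Ai14 aSMC, 4537137 to 7390630 in astrocyte and 5397905 to 7288036 in cortex, and mitochondrial genes took 0.214% to 0.559%, 16.8% to 17.6%, 10.7% to 12.5% and 35.7% to 72.9% of them, in the same order. Levels are CPM, counts scaled to a common library size, after TMM, which rescales each library by the trimmed mean of its log gene ratios to a reference library. They are divided by the kilobases of exon (per kb) where genes are compared. TMM factors were 0.423 to 0.551 in Ai47 aSMC, 2.21 in both Ai14 aSMC libraries, 1.52 to 2.68 in astrocyte and 0.697 to 1.87 in cortex, so levels depend on the scaling, above all between the aSMC groups. Smooth muscle markers without Rgs5 summed to 6432 to 7902 CPM in Ai47 aSMC, 9967 and 10742 in Ai14 aSMC, 80.0 to 145 in astrocyte and 44.9 to 171 in cortex, with none of the 12 at 0 in either aSMC group. The libraries labelled astrocyte had 1303 to 1945 CPM of 12 astrocyte markers, less than the 3445 to 18902 CPM of cortex. In astrocyte minus cortex 2 of these markers were higher and 3 lower, where 14.6% of all genes were higher and 19.8% lower. Gjb6 had no counts in astrocyte. The same 12 markers summed to 1187 to 1894 CPM in Ai47 aSMC and 188 and 264 in Ai14 aSMC, so the Ai47 aSMC sums overlapped those of astrocyte. Gene by gene the 2 groups differed: in Ai47 aSMC minus astrocyte 8 of the 12 were lower, 3 higher and 1 not called (median -4.13). Of all genes, 23.8% were lower and 26.1% higher there. Endothelial markers summed to 335 to 584 CPM in Ai47 aSMC, 365 and 336 in Ai14 aSMC, 516 to 1265 in astrocyte and 431 to 1329 in cortex. In astrocyte minus cortex 1 of these 12 markers was higher and 11 were lower (median -6.97). In that comparison 14.6% of all genes were higher and 19.8% lower, with a median of -0.08. Fibroblast markers, 6 genes, summed to 1544 to 2369 CPM in Ai47 aSMC, 110 and 152 in Ai14 aSMC, 1.06 to 7.87 in astrocyte and 15.7 to 42.2 in cortex. Of the 5 tested in Ai47 aSMC minus cortex, 2 were higher, 1 lower and 2 not called, where 24.1% of all genes were higher and 26.5% lower. Pdgfra had no counts in Ai47 aSMC. The part of these cell types in the results was not tested, and the name astrocyte below is that of the label.

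Rgs5 was the highest of the 7 genes per kb in both aSMC groups and in cortex, and the third in astrocytes. The 6 Ai47 aSMC libraries ranged from 2274 to 5438 CPM with a median of 3397, the Ai14 aSMC libraries had 9763 and 6608, the astrocyte libraries had 2.25, 14.8 and 9.70, and cortex ranged from 222 to 642 with a median of 328. No 2 groups overlapped, with Ai14 aSMC on top, then Ai47 aSMC, cortex and astrocyte. The means were 3495 ± 1183 CPM in Ai47 aSMC (SD, n = 6), 8185 ± 2231 in Ai14 aSMC (n = 2), 8.93 ± 6.33 in astrocyte (n = 3) and 350 ± 151 in cortex (n = 6). In a bulk library fewer cells of a type and less RNA per cell cannot be told apart. By edgeR's quasi-likelihood test over all 14927 genes, Rgs5 was higher in Ai47 aSMC than in cortex by 3.32 on the log2 scale (SE 0.43, Benjamini-Hochberg adjusted p = 2.32e-06) and in Ai14 aSMC than in cortex by 4.55 (SE 0.51, adjusted p = 1.01e-05). It was lower in astrocyte than in cortex, at -5.29 (SE 0.64, adjusted p = 9.55e-06), and higher than in astrocyte by 8.61 in Ai47 aSMC (SE 0.76, adjusted p = 2.92e-08) and by 9.84 in Ai14 aSMC (SE 0.82, adjusted p = 1.33e-07). The top pair of the order did not separate by the test, since Ai47 aSMC minus Ai14 aSMC was -1.23 (95% interval -2.31 to -0.15, adjusted p = 0.0894).

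Rgs5 is used as a marker of pericytes as well as of muscle cells. The other 9 pericyte markers of the list summed to 609 to 875 CPM in Ai47 aSMC, 1295 and 1375 in Ai14 aSMC, 2.54 to 10.4 in astrocyte and 48.0 to 126 in cortex, and 1 of them, Higd1b, had no counts in astrocyte. Against cortex 5 were higher, 1 lower and 3 not called in Ai47 aSMC, where 24.1% of all genes were higher and 26.5% lower. In Ai14 aSMC 5 were higher and 4 not called, where 3.97% of all genes were higher and 2.0% lower. Kcnj8, a potassium channel subunit that pericytes carry, ranged from 0.285 to 11.6 CPM in Ai47 aSMC with a median of 0.405, and replicate 1 held 222 of the group's 280 counts. It was at 0.365 and 1.0 CPM in Ai14 aSMC and ranged from 0 to 1.55 CPM in cortex with a median of 0.384. Abcc9, the sulfonylurea receptor subunit that pairs with it, averaged 2.20 CPM in Ai47 aSMC, 8.36 in Ai14 aSMC, 4.70 in astrocyte and 18.5 in cortex. Cspg4, Pdgfrb and Notch3 of the list had higher means in both aSMC groups than in cortex. Cspg4, the proteoglycan NG2 of pericytes and muscle cells, averaged 347 ± 82.1 CPM in Ai47 aSMC (SD, n = 6), 363 in Ai14 aSMC and 10.1 in cortex. Pdgfrb averaged 39.6 CPM in Ai47 aSMC (25.3 without replicate 1), 220 in Ai14 aSMC and 9.98 in cortex. Its Ai47 aSMC libraries (4.95 to 111 CPM) overlapped those of cortex (2.32 to 17.2 CPM). Notch3 averaged 144 CPM in Ai47 aSMC, 607 in Ai14 aSMC and 13.5 in cortex. The sums of the pericyte markers ran in the same order of groups as Rgs5. So did the mean sums of the smooth muscle markers, with cortex and astrocyte close and overlapping. These means were 10354.5 CPM in Ai14 aSMC, 7192 in Ai47 aSMC, 114 in cortex and 106 in astrocyte. The part of pericytes in the differences of Rgs5 was not tested.

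**Figure D1:**
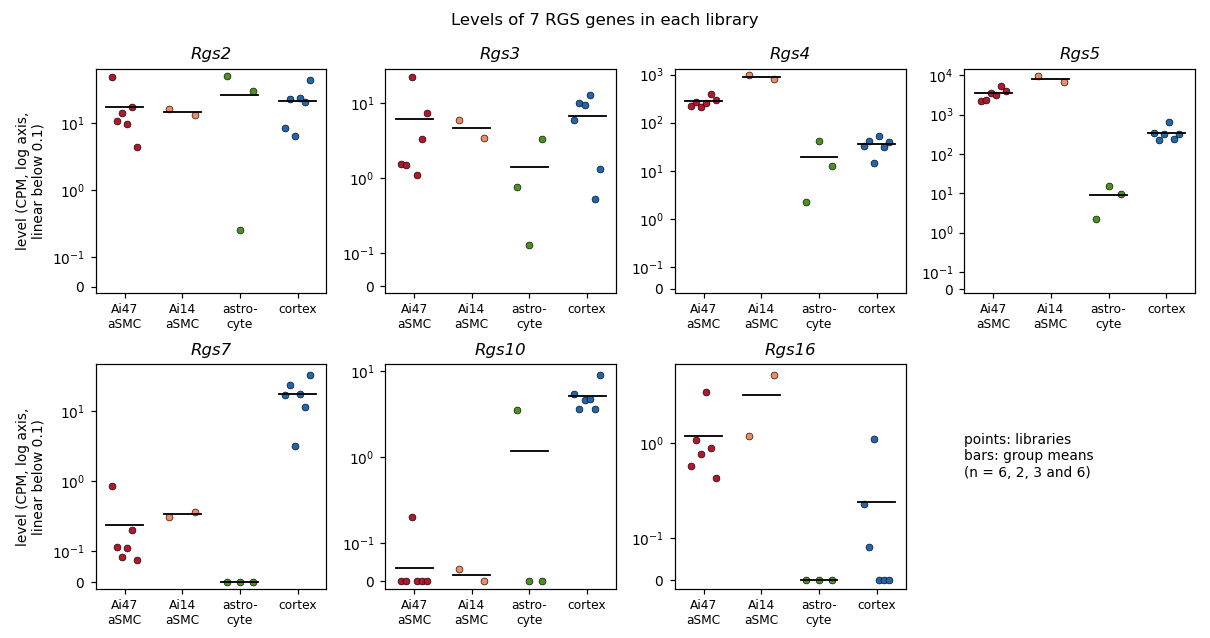
Level of each of the 7 RGS genes in CPM after TMM, on a log axis that is linear below 0.1, in Ai47 aSMC, Ai14 aSMC, astrocyte and cortex libraries. Each point is a library and each bar a group mean. Rgs5 spans from 2.25 CPM in an astrocyte library to 9763 CPM in an Ai14 aSMC library, and Rgs7 and Rgs16 are at 0 in all 3 astrocyte libraries.

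Rgs4, which acts on Gi/o and Gq, came second of the 7 per kb in all 4 groups. Like Rgs5 and Rgs16 it carries a cysteine after its first methionine, an N-degron that sends these RGS proteins to the proteasome. Ai47 aSMC libraries ranged from 214 to 391 CPM with a median of 266, Ai14 aSMC libraries had 980 and 803, astrocyte libraries had 2.25, 42.4 and 12.5, and cortex ranged from 14.6 to 53.59 with a median of 35.8. Every aSMC library was above every astrocyte and cortex library, and astrocyte and cortex overlapped. Rgs4 averaged 277 ± 64.4 CPM in Ai47 aSMC and 35.5 ± 13.02 in cortex (SD, n = 6 each), a log2 difference of 2.96 (SE 0.52, adjusted p = 9.06e-05, edgeR). Against cortex Ai14 aSMC were higher by 4.65 (SE 0.63, adjusted p = 9.91e-05), and against astrocyte Ai47 aSMC were higher by 3.86 (SE 0.74, adjusted p = 0.000266) and Ai14 aSMC by 5.55 (SE 0.86, adjusted p = 0.000165). Astrocyte minus cortex was -0.90 (95% interval -2.19 to 0.39, adjusted p = 0.274). That value rests on astrocyte replicate 2, the library at 42.4 CPM: without it the difference was -2.42 with an adjusted p of 0.00844.

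Both genes were higher in the Ai14 than in the Ai47 libraries without overlap, and the test called neither. Rgs4 differed by -1.69 for Ai47 aSMC minus Ai14 aSMC (95% interval -3.01 to -0.36, adjusted p = 0.0559 in edgeR). With library totals alone in place of TMM the differences were -3.89 for Rgs4 (adjusted p = 8.85e-05) and -3.42 for Rgs5 (adjusted p = 3.26e-05), a setting that put the median of all genes at -2.59, against -0.42 with TMM. With only those 2 groups in the fit they were -1.54 (adjusted p = 0.000905) and -1.08 (adjusted p = 0.0305). Ratios of counts within a library need no scaling. Rgs5 had 0.510 to 1.82 counts per Acta2 count in Ai47 aSMC and 3.88 and 2.42 in Ai14 aSMC, without overlap, but 1.19 to 2.39 counts per Myh11 count in Ai47 aSMC and 2.42 and 1.58 in Ai14 aSMC, with overlap. The 2 groups also differ in reporter, in depth and in mitochondrial share (0.214% to 0.559% in Ai47 aSMC, 16.8% to 17.6% in Ai14 aSMC). Their mean sums of fibroblast markers differ too, at 1869 CPM in Ai47 aSMC and 131 in Ai14 aSMC. The parts of these in the differences of Rgs4 and Rgs5 were not tested and cannot be told apart from a difference between the cells.

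The balance of Rgs5 to Rgs4 was alike in aSMCs and cortex and different in astrocytes. Rgs5 had 8.69 to 16.7 counts for each Rgs4 count in Ai47 aSMC, 9.96 and 8.22 in Ai14 aSMC, 0.350 to 1 in astrocyte and 5.30 to 22.5 in cortex. Only the astrocyte libraries had fewer or equal counts of Rgs5 than of Rgs4. Over the 17 libraries log2(CPM + 0.5) of the 2 genes had a Pearson r of 0.91, and 0.77 after group means were removed, values that share each library's scaling factor. Among genes with a mean of at least 10 CPM, the 3 most like Rgs5 over these 17 libraries were Itga1, an integrin alpha subunit that binds collagen (r = 0.989), Gucy1a1, a subunit of the nitric oxide receptor guanylate cyclase (r = 0.982), and Notch3, the receptor that marks mural cells (r = 0.974). After group means were removed these r were 0.73, 0.52 and 0.43, lower than over all libraries. The 3 most like Rgs4 were Nab1, a corepressor of EGR factors (r = 0.968), Tpm2, a muscle tropomyosin (r = 0.951), and Vcl, which encodes vinculin (r = 0.949), and these were 0.80, 0.74 and 0.56 without group means.

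Per kb of exon, Rgs5 made up 84.4% to 90.9% of all RGS counts in Ai47 aSMC, 86.7% and 84.3% in Ai14 aSMC, 1.24% to 7.93% in astrocyte and 52.9% to 74.5% in cortex. Rgs4 added 7.96% to 14.3% in Ai47 aSMC, 12.8% and 15.03% in Ai14 aSMC, 1.83% to 33.2% in astrocyte and 4.497% to 14.6% in cortex. What was left to the other 18 genes was thus small in the aSMC libraries and large in cortex and astrocyte. The summed level of the 20 RGS genes was 2565 to 5866 CPM in Ai47 aSMC, 10815 and 7478 in Ai14 aSMC, 153 to 192 in astrocyte and 415 to 881 in cortex.

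**Figure D2:**
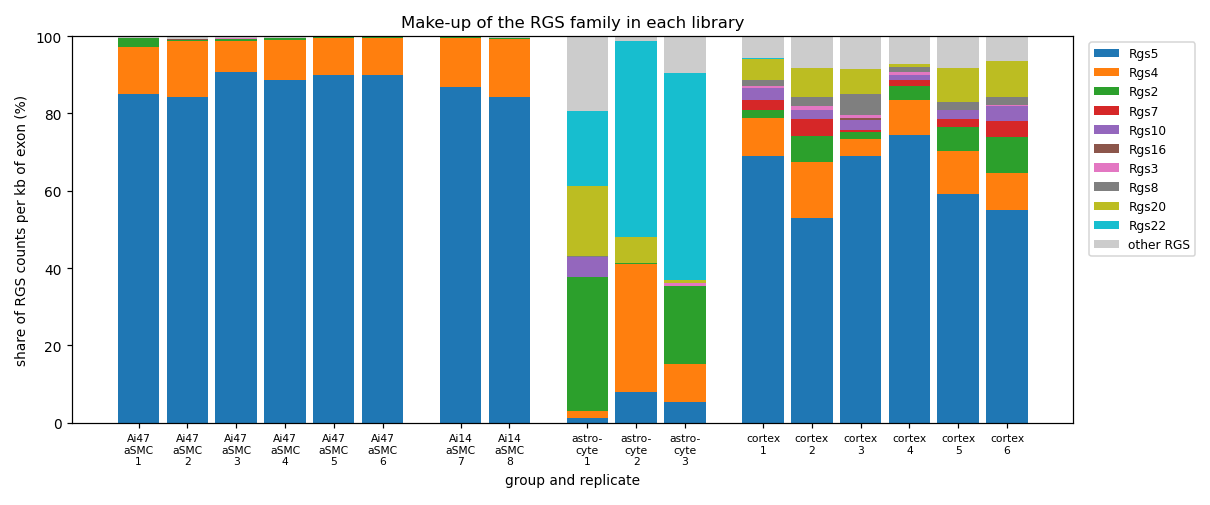
Share of each RGS gene in the counts per kb of exon of all RGS genes, in percent, for each library of Ai47 aSMC, Ai14 aSMC, astrocyte and cortex. Rgs5 fills 84.3% to 90.9% of every aSMC bar and 52.9% to 74.5% of every cortex bar, while in the astrocyte bars it is at most 7.93% and Rgs22 takes 19.3% to 53.55%.

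Rgs16, an R4 gene whose RNA is induced by many stimuli, had few counts everywhere. Ai47 aSMC ranged from 0.437 to 3.50 CPM with a median of 0.830, Ai14 aSMC had 1.19 and 5.30, astrocyte had no count in any library, and cortex ranged from 0 to 1.12 with a median of 0.0398. Counts were 178 over the 6 Ai47 aSMC libraries, 214 over the 2 Ai14 aSMC libraries and 12 over the 6 cortex libraries, 9 of them in cortex replicate 3. Against astrocyte Rgs16 was higher in Ai47 aSMC (adjusted p = 0.00837, edgeR) and in Ai14 aSMC (adjusted p = 0.0139), at least 15.5-fold and at least 41.5-fold when 3 counts over the astrocyte group are taken as the floor. These bounds were 9.60-fold without Ai47 aSMC replicate 4 and 15.2-fold without Ai14 aSMC replicate 8. Ai47 aSMC minus cortex was 2.23 (95% interval -0.15 to 4.61, adjusted p = 0.111) and Ai14 aSMC minus cortex was 3.65 (95% interval 0.75 to 6.54, adjusted p = 0.139). Without cortex replicate 3 these were 4.18 (adjusted p = 0.00966) and 5.14 (adjusted p = 0.0454). Without Ai14 aSMC replicate 8 the difference from astrocyte in Ai14 aSMC was no longer called (adjusted p = 0.0906). The 3 genes most like Rgs16 were Cped1 (r = 0.869), Smtn, which encodes smoothelin of contractile muscle (r = 0.828), and Vgll3, a cofactor of TEAD factors (r = 0.813), with 0.60, 0.41 and 0.26 after group means were removed.

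Rgs2 and Rgs3 showed no difference between any groups that passed the test, and both varied widely within groups. Rgs2 restrains Gq signals of constrictor receptors, and in vascular muscle the cGMP-dependent kinase activates it. It ranged from 4.37 to 49.0 CPM in Ai47 aSMC with a median of 12.4, had 16.3 and 13.2 CPM in Ai14 aSMC and 49.7, 0.254 and 29.7 in astrocyte, and ranged from 6.36 to 43.9 in cortex with a median of 21.6. All 4 groups overlapped, and in Ai47 aSMC replicate 1 stood above the other 5, whose mean was 11.3 CPM. Ai47 aSMC minus cortex was -0.25 for Rgs2 (95% interval -1.90 to 1.39) and Ai14 aSMC minus cortex was -0.50 (95% interval -2.89 to 1.89), so a rise and a fall of 2-fold both lie inside either interval. Immediate early genes, with which Rgs2 is often induced, summed to 18020 to 24608 CPM in Ai47 aSMC, 5981 and 8887 in Ai14 aSMC, 185 to 1570 in astrocyte and 323 to 760 in cortex. In Ai47 aSMC minus cortex 15 of these 20 genes were higher, 2 lower and 3 not called, where 24.1% of all genes were higher and 26.5% lower. Their part in the levels of Rgs2 was not tested. By library totals alone Rgs2 was called lower in Ai47 aSMC than in astrocyte (-3.04, adjusted p = 0.0116). The 3 genes most like Rgs2 were Smim15 (r = 0.870), Cd99l2 (r = 0.867) and Hltf (r = 0.855), with 0.87, 0.93 and 0.88 after group means were removed.

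Rgs3 is the longest of the 7 genes, with several isoforms and start sites. It ranged from 1.11 to 22.4 CPM in Ai47 aSMC with a median of 2.44, had 5.94 and 3.43 CPM in Ai14 aSMC and 0.749, 0.127 and 3.34 in astrocyte, and ranged from 0.517 to 12.7 in cortex with a median of 7.70. The highest Ai47 aSMC value, in replicate 3, was 551 of the group's 921 counts. Ai47 aSMC minus cortex was -0.11 for Rgs3 (95% interval -2.06 to 1.85), and Ai47 aSMC minus astrocyte was 2.11 (95% interval -0.56 to 4.78, adjusted p = 0.176). Without astrocyte replicate 3 the second value was 4.09 with an adjusted p of 0.0477. The genes most like Rgs3 were Kmt5b (r = 0.785), Abl2 (r = 0.769) and Maco1 (r = 0.747), the lowest correlations among the 7, and 0.83, 0.73 and 0.73 after group means were removed.

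Rgs7 was lower in every sorted group than in cortex. Ai47 aSMC ranged from 0.0728 to 0.838 CPM with a median of 0.112, Ai14 aSMC had 0.304 and 0.364, no astrocyte library had a count, and cortex ranged from 3.12 to 32.5 CPM with a median of 17.1. Ai47 aSMC replicate 1 held 16 of the 30 counts of its group. Rgs7 averaged 0.236 ± 0.298 CPM in Ai47 aSMC and 17.4 ± 10.04 in cortex (SD, n = 6 each), a log2 difference of -6.18 (SE 0.97, adjusted p = 3.89e-05, edgeR), and -6.98 without replicate 1. Ai14 aSMC minus cortex was -5.67 (SE 1.57, adjusted p = 0.0376), a call lost in 9 of 17 other settings. Among these were the fits without either Ai14 aSMC library and those without each cortex library other than replicate 3 (adjusted p = 0.0524 to 0.0650 for the cortex libraries). In astrocyte Rgs7 was at least 222-fold lower than in cortex (adjusted p = 0.000223). It was also called higher in Ai47 aSMC and in Ai14 aSMC than in astrocyte, at least 3.02-fold and 4.27-fold (adjusted p = 0.0169 and 0.0374), on 30 and 22 counts. The first was 1.48-fold without Ai47 aSMC replicate 1, and its call was lost in 3 of 17 other settings, namely library totals alone (adjusted p = 0.128), a replicate block (adjusted p = 0.0587) and the Ai47 aSMC columns summed to 1 library (adjusted p = 0.0571). The second call was lost in 9 of 13 other settings, among them the fits without either Ai14 aSMC library and without each astrocyte library. The 12 neuron markers summed to 1.74 to 44.0 CPM in Ai47 aSMC, 23.1 and 27.2 in Ai14 aSMC, 0.0936 to 11.3 in astrocyte and 585 to 946 in cortex, and 5 of them had no counts in astrocyte; their part in the differences of Rgs7 was not tested. The genes most like Rgs7 were Ptprt, a receptor phosphatase (r = 0.971), Add2, the beta subunit of adducin (r = 0.964), and Vxn (r = 0.963), with 0.66, 0.66 and 0.70 after group means were removed.

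Rgs10 had counts in few of the sorted libraries and in every cortex one. Of the Ai47 aSMC libraries only replicate 3 had counts (5, or 0.203 CPM), of the Ai14 aSMC libraries replicate 7 had 1 count, and of the astrocyte libraries replicate 1 had 38 counts (3.56 CPM), while cortex ranged from 3.62 to 9.07 CPM with a median of 4.68. Rgs10 averaged 0.0338 ± 0.0828 CPM in Ai47 aSMC and 5.18 ± 2.02 in cortex (SD, n = 6 each), a log2 difference of -6.95 (SE 1.56, adjusted p = 0.000977, edgeR). In Ai14 aSMC it did not pass the test against cortex (adjusted p = 0.0963), with 1 count in Ai14 aSMC and 216 in cortex, a ratio of cortex to Ai14 aSMC of 326 (exact 95% interval 58.0 to 12955, counting error only). DESeq2 and the fit of only these 2 groups called it lower (adjusted p = 0.00146 and 0.00150). Astrocyte replicate 1 decided the astrocyte comparisons. Ai47 aSMC minus astrocyte was -4.82 (SE 1.53, adjusted p = 0.0130) with it and 2.70 (adjusted p = 0.312) without it, and astrocyte minus cortex was -2.12 (adjusted p = 0.330) with it and -9.53 (adjusted p = 0.0108) without it. Astrocyte held no Rgs10 counts without replicate 1, so the sizes of 2.70 and -9.53 depend on the small count that the fit adds. The 13 markers of microglia and macrophages summed to 2.40 to 43.2 CPM in Ai47 aSMC, 66.4 and 25.0 in Ai14 aSMC, 10.4 in astrocyte replicate 1 with 2.79 and 24.8 in the other astrocyte libraries, and 221 to 2200 in cortex. In astrocyte 7 of the 13 had no counts. Their part in the differences of Rgs10 was not tested. The genes most like Rgs10 were Lmo3, a LIM-only transcription cofactor (r = 0.959), Unc80, a subunit of the sodium leak channel complex (r = 0.958), and Pcp4, a calmodulin binding peptide (r = 0.955), each known from neurons, with 0.91, 0.88 and 0.94 after group means were removed.

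Of the 7 genes, 2 were higher in Ai47 aSMC than in cortex (Rgs5, Rgs4) and 2 lower (Rgs7, Rgs10), where 50.6% of all genes tested were called (24.1% higher, 26.5% lower), and the median of the 7 was -0.11 against -0.16 over all genes. The libraries of 4 of the 7 did not overlap, as for 35.2% of all genes. In Ai14 aSMC minus cortex 2 were higher (Rgs5, Rgs4) and 1 lower (Rgs7), where 5.97% of all genes were called (3.97% higher, 2.0% lower), with medians of -0.50 and 0.32. Here 5 of the 7 did not overlap (36.7% of all genes). In astrocyte minus cortex none was higher and 2 were lower (Rgs5, Rgs7), where 34.5% of all genes were called (14.6% higher, 19.8% lower). The median of the 7 with genes at 0 set to their bounds was -2.12, against -0.08 over all genes, and 3 of the 7 did not overlap (25.1% of all genes). The 3 comparisons share the cortex libraries.

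Against astrocyte, 4 of the 7 were higher in Ai47 aSMC (Rgs5, Rgs4, Rgs16, Rgs7) and 1 lower (Rgs10), where 49.9% of all genes were called (26.1% higher, 23.8% lower). The same 4 were higher in Ai14 aSMC and none lower, where 17.1% of all genes were called (13.6% higher, 3.56% lower). In Ai47 aSMC 4 of the 7 did not overlap with astrocyte (38.2% of all genes) and in Ai14 aSMC 5 (48.0%). The medians with bounds were 2.11 and 2.09, against 0.22 and 0.34 over all genes, and these comparisons share the astrocyte libraries. With only Ai14 aSMC and astrocyte in the fit none of the 4 was called there, nor any other gene (Rgs5 adjusted p = 0.0535, Rgs4 adjusted p = 0.0922). In Ai47 aSMC minus Ai14 aSMC 25.6% of all genes were called (9.55% higher, 16.0% lower), but none of the 7 in edgeR, with 2 at an unadjusted p under 0.05 (Rgs4, Rgs5) and none called by DESeq2, which gave no adjusted p for Rgs4. These 2 did not overlap, as for 52.2% of all genes. With the 6 Ai47 aSMC columns summed to 1 library, which removes their spread, Rgs5 and Rgs4 stayed higher than in cortex and astrocyte, while the calls of Rgs7 and Rgs10 against cortex were lost (adjusted p = 0.0706 and 0.212).

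**Figure D3:**
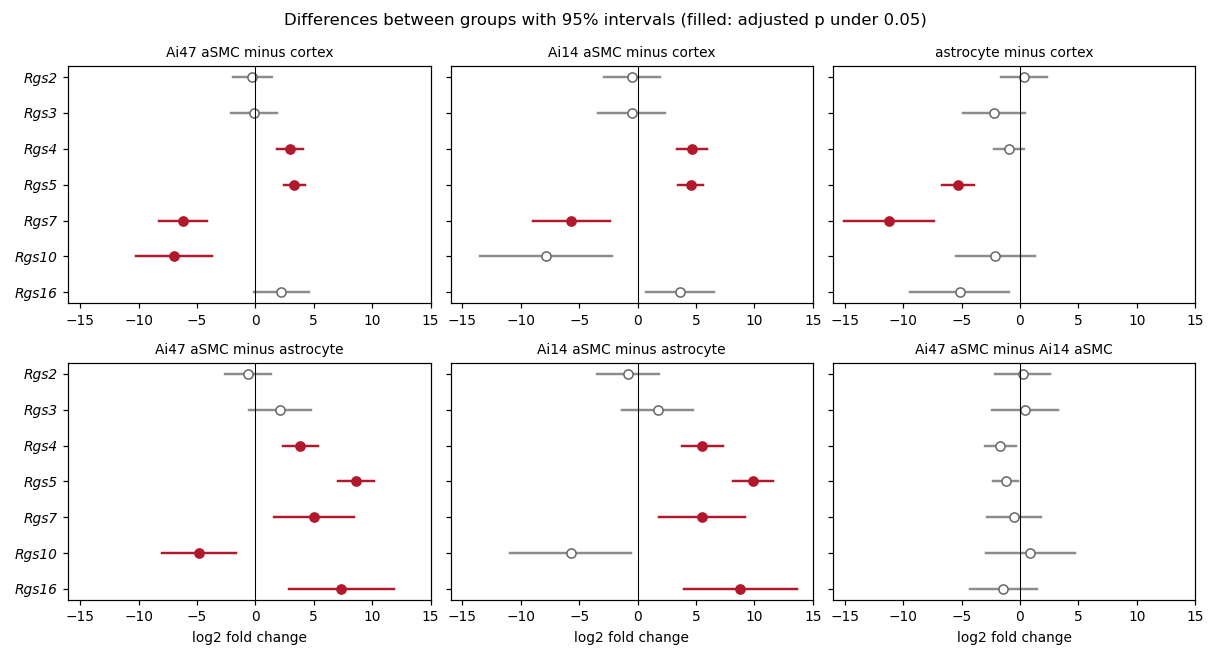
Log2 difference of each of the 7 RGS genes in the 6 comparisons, with 95% intervals from the edgeR fit of 17 libraries. Filled points have an adjusted p under 0.05. Rgs4 and Rgs5 lie right of 0 in all 4 panels that set aSMCs against cortex or astrocyte, and no point is filled in the panel of Ai47 aSMC minus Ai14 aSMC. The plotted values of genes at 0 in astrocyte (Rgs7, Rgs16) depend on the small count that the fit adds.

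Of 14 further RGS genes listed, 13 were in the table and 10 passed the filter. In Ai47 aSMC minus cortex 1 was higher and 4 were lower, where 50.6% of all genes were called (24.1% higher, 26.5% lower), with a median of -1.75 against -0.16 over all genes. The higher one was Rgs11, an R7 gene, at 2.29 ± 1.81 CPM in Ai47 aSMC and 0.186 ± 0.455 in cortex (log2 difference 3.37, adjusted p = 0.0418, edgeR). All 14 of its cortex counts were in replicate 2, without which cortex held none, and the call was lost without cortex replicate 1 (adjusted p = 0.0533). The lower ones were Rgs8 (-8.70), an R4 gene of neurons, Rgs20 (-8.28), which prefers Gz, Rgs1 (-5.67), an R4 gene of immune cells, and Rgs12 (-2.28), a large scaffold protein. Rgs12 was no longer called without any of 8 of the 12 libraries (adjusted p = 0.0538 to 0.105), and Rgs1 was -4.66 without cortex replicate 4. In Ai14 aSMC minus cortex the calls were Rgs8 (-5.54) and Rgs20 (-6.08), both lower, where 5.97% of all genes were called, and both calls were lost without either Ai14 aSMC library (adjusted p = 0.167 to 0.221). Rgs8 was the only one of the 10 called between the aSMC groups, lower in Ai47 aSMC by 3.16 on the log2 scale (adjusted p = 0.00936), at means of 0.0588 CPM in Ai47 aSMC and 0.577 CPM in Ai14 aSMC, a call lost without either Ai14 aSMC library (adjusted p = 0.0817 and 0.159) and without Ai47 aSMC replicate 3, 5 or 6 (adjusted p = 0.0501 to 0.0514).

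In astrocyte Rgs22 had the highest mean share of RGS counts per kb, 41.2%. This is a long gene known from testis, and it had 43.4 to 123 CPM in astrocyte and 0 to 1.03 in cortex, a log2 difference of 8.44 (SE 1.62, adjusted p = 0.000657). It was 7.82 lower in Ai47 aSMC than in astrocyte on the log2 scale (adjusted p = 0.000395). Rgs22 was not called in Ai14 aSMC minus astrocyte, with 5.11 and 0.121 CPM in the Ai14 aSMC libraries. Against cortex the lower ones in astrocyte were Rgs17 (-7.70), Rgs6 (-3.23), Rgs1 (no counts in astrocyte, at least 96.0-fold lower, and 50.9-fold without cortex replicate 4, which held 127 of the 256 cortex counts) and Rgs8, with 1 count in astrocyte and 1189 in cortex, a ratio of cortex to astrocyte of 1047 (exact 95% interval 188 to 41380). Against astrocyte, Rgs17 was higher in Ai47 aSMC (5.85) and in Ai14 aSMC (7.35), Rgs20 was lower in both (-7.27 and -5.07), Rgs19 was lower in Ai47 aSMC (-2.89), Rgs11 was at least 29.3-fold higher in Ai47 aSMC, and Rgs8 was higher in Ai14 aSMC on 38 counts against 1. Single libraries decided several of these values. Rgs19 lost its call without any library but astrocyte replicate 2 (adjusted p = 0.0719 to 0.304). In Ai14 aSMC against astrocyte, Rgs20 lost its call without either Ai14 aSMC library (adjusted p = 0.135 and 0.11), and so did Rgs8 (adjusted p = 0.0732 and 0.134) as well as without astrocyte replicate 2 or 3 (adjusted p = 0.0552 and 0.0718). Without astrocyte replicate 3, which held all 5 Rgs17 counts of its group, Rgs17 was -11.61 against cortex, and 9.88 and 11 in Ai47 and Ai14 aSMC against astrocyte. The sizes of these Rgs17 values depend on the small count that the fit adds. Rgs22 was 9.71 in astrocyte minus cortex without cortex replicate 1, and -9.82 in Ai47 aSMC minus astrocyte without Ai47 aSMC replicate 3. Without astrocyte replicate 1, Rgs6 was -3.91 in astrocyte minus cortex and Rgs20 was -5.91 and -4.08 in Ai47 and Ai14 aSMC against astrocyte.

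**Figure D4:**
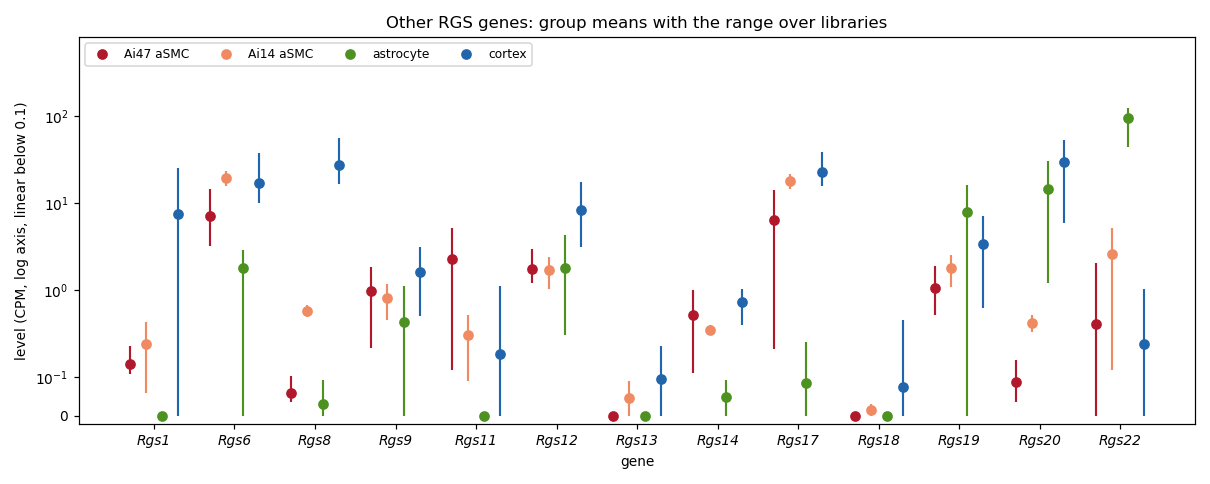
Mean level in CPM of the 13 other RGS genes in Ai47 aSMC, Ai14 aSMC, astrocyte and cortex, on a log axis that is linear below 0.1, with vertical lines for the range over libraries. Rgs22 stands at 43.4 to 123 CPM in astrocyte and at most 5.11 CPM in any other library, and Rgs8 and Rgs20 are high in cortex and low in both aSMC groups.

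R7 proteins work in a complex with partner proteins. Of 5 partner genes, 3 were tested in Ai47 aSMC minus cortex and 1 was called (lower, as were 26.5% of all genes), Gpr158, an orphan receptor that binds RGS7 at the membrane (-6.60, adjusted p = 5.30e-06). Rgs7bp, the palmitoylated anchor of R7 proteins, averaged 79.9 ± 42.7 CPM in Ai47 aSMC, 199 ± 31.8 in Ai14 aSMC, 2.44 ± 4.23 in astrocyte and 54.4 ± 10.6 in cortex, with no call against cortex in either aSMC group (adjusted p = 0.573 and 0.311). Gnb5, the obligate G beta partner, averaged 2.49 ± 2.02 CPM in Ai47 aSMC, 3.63 ± 0.333 in Ai14 aSMC, 37.9 ± 49.9 in astrocyte and 3.61 ± 4.09 in cortex. It was called higher in astrocyte than in cortex (3.37, adjusted p = 0.0446) and lower in Ai47 aSMC than in astrocyte (-3.92, adjusted p = 0.0158), and without astrocyte replicate 2, which held 748 of the 1104 astrocyte counts, these were 1.33 (adjusted p = 0.491) and -1.67 (adjusted p = 0.323). The first was also lost without cortex replicate 1, 4, 5 or 6 (adjusted p = 0.0553 to 0.0704).

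Of 3 G alpha genes of the q/11 class tested, 2 were higher and 1 lower in Ai47 aSMC than in cortex, where 24.1% of all genes were higher and 26.5% lower. Gna11 averaged 2762 ± 617 CPM in Ai47 aSMC, 36.6 ± 2.13 in Ai14 aSMC, 16.2 ± 13.2 in astrocyte and 27.5 ± 10.4 in cortex, and Gnaq averaged 416 ± 69.9, 34.8 ± 2.46, 28.6 ± 10.6 and 83.5 ± 20.1 CPM in the same order. Both were higher in Ai47 aSMC than in cortex (6.65 and 2.31, adjusted p = 1.48e-08 and 1.67e-05) and than in Ai14 aSMC (6.24 and 3.58, adjusted p = 0.000106 and 0.000228, with 6.83 for Gna11 without Ai47 aSMC replicate 4 or 6), and neither was called in Ai14 aSMC minus cortex. Gna15, the q-class subunit of blood cells, had no counts in Ai47 aSMC, at least 52.1-fold lower than in cortex (adjusted p = 0.00427), and 16.2-fold without cortex replicate 4, which held 25 of the 41 cortex counts. Of 5 i/o genes tested none was higher and 2 were lower in Ai47 aSMC than in cortex, Gnao1, the subunit abundant in neurons (-3.49), and Gnai1 (-4.00), while Gnai2, the highest in Ai47 aSMC at 44.2 ± 14.7 CPM, was not called (-0.91, adjusted p = 0.0621). Gnai1 averaged 4.89 CPM in Ai47 aSMC with a median of 0.233, and 0.912 without replicate 6, which held 681 of 793 counts (-6.29 against cortex without it). Of 4 genes of the 12/13 and s classes 3 were lower, Gnal (-6.57), Gna12 (-3.46) and Gnas (-3.00), and Gna13 at 40.6 ± 34.3 CPM was not called (-1.53 and adjusted p = 0.0344 without Ai47 aSMC replicate 1). Gna12 averaged 3.40 CPM in Ai47 aSMC, and 0.818 without replicate 6, which held 449 of 538 counts (-5.26 against cortex without it). Gnal averaged 0.774 CPM, and 0.346 without replicate 4, which held 79 of 118 counts (-7.52 without it). No gene of these 2 lists was called in Ai14 aSMC minus cortex.

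Of 13 G beta and gamma genes 3 were higher and 8 lower in Ai47 aSMC than in cortex, 11 of 13 against 50.6% of all genes, with a median of -2.40. Gnb1, the common G beta, averaged 16328 ± 2210 CPM in Ai47 aSMC, 143 ± 9.85 in Ai14 aSMC, 148 ± 74.6 in astrocyte and 296 ± 48.2 in cortex (Ai47 aSMC minus cortex 5.78, adjusted p = 3.14e-11, and Ai47 aSMC minus Ai14 aSMC 6.84, adjusted p = 7.81e-08). Gng11, a gamma subunit of non-neural cells, was at 25.7 ± 3.31 CPM in Ai47 aSMC and 4.20 ± 2.82 in cortex (2.60), and Gng7 and Gng4, gamma subunits known from neurons, were lower (-9.63 and -8.58, or -10.46 without Ai47 aSMC replicate 1 and -9.17 without replicate 4). In Ai14 aSMC, labelled as the same cell type, neither Gnb1 nor Gna11 was called against cortex (-1.05 and 0.41).

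Of 11 genes downstream of Gq 1 was higher and 5 lower in Ai47 aSMC than in cortex, 6 of 11 against 50.6% of all genes. The higher one was Prkcd, a protein kinase C, at 208 ± 47.0 CPM in Ai47 aSMC and 9.70 ± 5.27 in cortex (4.42, adjusted p = 8.42e-07), while the inositol trisphosphate receptor Itpr1 was lower, at 61.6 ± 28.8 and 176 ± 98.3 CPM (-1.52, adjusted p = 0.0122), a call lost without cortex replicate 3 (-1.06, adjusted p = 0.0749). Prkcb had 3 counts in Ai47 aSMC and 3542 in cortex, a ratio of cortex to Ai47 aSMC of 3812 (exact 95% interval 1303 to 18494), and Plcb2 had 1 count in Ai47 aSMC and 79 in cortex, a ratio of 255 (exact 95% interval 44.5 to 10200.5). Of 7 kinase and arrestin genes that silence receptors 1 was higher, Grk4 at 72.5 ± 26.3 CPM in Ai47 aSMC and 3.73 ± 2.82 in cortex (4.27, or 4.92 without cortex replicate 3), and 3 were lower, 4 of 7 against 50.6%, with Arrb2 the furthest (-7.01, or -5.47 without cortex replicate 4), while Grk3 at 11.6 ± 17.9 CPM was not called (-2.29 and adjusted p = 0.00964 without Ai47 aSMC replicate 6). In the cGMP arm that acts on Rgs2, Gucy1a1 was higher in both aSMC groups than in cortex (3.66 in Ai47 aSMC and 4.17 in Ai14 aSMC), and Prkg1, the cGMP-dependent kinase, averaged 28.1 ± 14.1 CPM in Ai47 aSMC, 371 ± 23.2 in Ai14 aSMC and 10.7 ± 7.02 in cortex, called in Ai14 aSMC (5.12, adjusted p = 0.000357) and not in Ai47 aSMC (1.39, adjusted p = 0.0676). The second was called without Ai47 aSMC replicate 1 or 2 or cortex replicate 1, 2 or 5 (1.68 to 1.84, adjusted p = 0.00892 to 0.0427). Of 3 genes tested for potassium channels gated by G beta-gamma, Kcnj6 (-7.42, or -6.64 without cortex replicate 3) and Kcnj9 were lower in Ai47 aSMC than in cortex, 2 of 3 against 50.6%, and Kcnj3 was not called (-4.50 and adjusted p = 0.00837 without Ai47 aSMC replicate 2). Kcnj9 had 2 counts in Ai47 aSMC, both in replicate 6, and 130 in cortex, a ratio of cortex to Ai47 aSMC of 210 (exact 95% interval 56.9 to 1751).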

How the data were processed

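Bulk RNA-seq of 17 libraries was deposited as 1 table of raw counts per gene (21640 genes), with 0 columns that matched no sample. How the authors made the deposited counts is described in 2 ways: the study's methods name TopHat, htseq-count and TruSeq libraries, and the labels name NuGEN Ovation libraries, while the submitters' processing notes name Trim Galore 0.6.7, FastQC 0.11.9, MultiQC 1.13, Salmon 1.4.0 and GRCm38. No source used here says which applies to which library, or whether strand was used, so reads of overlapping or antisense genes cannot be told apart.

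Genes were kept by filterByExpr (minimum count 10), which left 14927. 1 edgeR 4.0.16 quasi-likelihood fit (R 4.3.3) of all 17 libraries with TMM gave 6 comparisons, called at a Benjamini-Hochberg adjusted p under 0.05. Levels are TMM-scaled CPM, likeness used log2(CPM + 0.5), and bounds take 3 counts over a group at 0. Intervals of count ratios (95%, Clopper-Pearson) and bounds cover counting error only. The fit was tested on simulated counts in which a small set of genes was changed. Of log2 changes of 2, 0% to 3% were recovered. Of log2 changes of 4, 2% to 38% were recovered, the fewest in Ai14 aSMC minus astrocyte. The changed set was a smaller share of genes than the 5.97% to 50.6% called in the real comparisons. The Benjamini-Hochberg cut-off depends on that share, so these rates do not measure the power of the real comparisons. A gene that was not called may still differ. Positions came from GENCODE M21 by symbol (97.42% of genes matched) and promoters from RefSeq. Alternatives were DESeq2 1.42.0, other scalings, filters and samples in the fit, a replicate block, the Ai47 aSMC columns as 1 library and leaving out each library, which for the other RGS and pathway genes and for bounds was added after seeing the data.

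The 7 genes and all lists were chosen with earlier results of these data known. Named from each pathway list were the 2 genes highest in Ai47 aSMC and the 2 called with the largest change in Ai47 aSMC minus cortex, every other RGS gene called in any comparison, and for likeness the top 3 genes with a mean of at least 10 CPM. Genes of the marker lists that the text names, and the promoter motifs, were chosen after their values were seen.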

Additional observations from a re-analysis of the deposited data

Results flagged for a closer look

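Of 14 groups of 6 libraries checked (7 genes in Ai47 aSMC and cortex), 8 had a highest library set apart from the others by Dixon's criterion. That criterion flags about 1 in 20 groups by chance when values are normally distributed. It was applied to CPM that were not logged, some of them 0, so this rate need not hold here. Groups of 2 and 3 libraries were not checked. In Ai47 aSMC, replicate 1 had 48.99 CPM of Rgs2 and 0.838 CPM of Rgs7, replicate 3 had 22.35 CPM of Rgs3 and 0.203 CPM of Rgs10, and replicate 4 had 3.50 CPM of Rgs16. In cortex, replicate 4 had 642.1 CPM of Rgs5, replicate 6 had 9.07 CPM of Rgs10 and replicate 3 had 1.12 CPM of Rgs16. The values for Rgs7 in replicate 1, Rgs10 in Ai47 aSMC replicate 3 and Rgs16 in cortex replicate 3 rest on 16, 5 and 9 counts. Rgs4 had no such library in either group.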

How the results depend on the processing

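Rgs5 and Rgs4 kept their direction and their call in Ai47 aSMC minus cortex under every alternative run that gave them a value (2.11 to 3.73 for Rgs5 and 1.67 to 3.29 for Rgs4); DESeq2 gave no adjusted p for Rgs4. The cause of the changes that follow was not tested. Few counts limit Rgs7, Rgs10 and Rgs16 in the sorted libraries, and 2 Ai14 aSMC libraries limit every comparison with that group.

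With library totals alone, Ai47 aSMC minus Ai14 aSMC had 7138 genes called and 4 of the 7 RGS genes, with -2.03 for Rgs2, -1.79 for Rgs3 and -0.84 for Rgs10. The same setting gave 0.52 for Rgs2 and 0.26 for Rgs3 in Ai14 aSMC minus cortex and -0.30 for Rgs3 in Ai47 aSMC minus astrocyte. It put the median of all genes at -1.5 in Ai47 aSMC minus cortex, against -0.16 with TMM. DESeq2 called 2104 genes in Ai14 aSMC minus cortex (891 in edgeR) and 3967 in Ai14 aSMC minus astrocyte (2557 in edgeR). Rgs7 in Ai47 aSMC minus Ai14 aSMC was 0.03 with DESeq2 size factors, 0.01 with DESeq2 and 0.09 without mitochondrial genes. In Ai47 aSMC minus cortex, Rgs2 was 0.15 without mitochondrial genes, and Rgs3 was 0.28 without mitochondrial genes, 0.10 with no filter, 0.02 with only those 2 groups and 0.28 with the Ai47 aSMC columns as 1 library.

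With only the 2 groups compared in the fit, 2476 genes were called in Ai14 aSMC minus cortex, 3 of the 7 in Ai47 aSMC minus astrocyte and 2 of the 7 in Ai47 aSMC minus Ai14 aSMC. In Ai14 aSMC minus astrocyte edgeR then called 0 genes (2836 at an unadjusted p under 0.05; DESeq2 on all groups 3967) and 0 of the 7 (3 at an unadjusted p under 0.05). With the Ai47 aSMC columns as 1 library, 2540 genes and 2 of the 7 were called in Ai47 aSMC minus cortex, 2909 and 2 in Ai47 aSMC minus astrocyte, 2 of the 7 in Ai14 aSMC minus astrocyte and 505 genes in Ai47 aSMC minus Ai14 aSMC. Leaving the Ai47 aSMC libraries out of the fit, an alternative chosen after seeing the data, changed no call of the 7.

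After group means were removed, same-numbered libraries of different groups had correlations of -0.0447 to 0.0351. Such values compare different cell populations, so they cannot show whether 2 libraries share a mouse. With the replicate block, 2720 genes were called in astrocyte minus cortex and 4849 in Ai47 aSMC minus astrocyte, with 2 of the 7 in the second. Rgs2 was then -0.55 in astrocyte minus cortex and 0.03 in Ai47 aSMC minus astrocyte, Rgs7 at 4.64 and Rgs10 at -3.39 were no longer called in Ai47 aSMC minus astrocyte, and Rgs16 gave no value.

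Leaving out 1 library at a time, genes called ranged from 222 to 712 in Ai14 aSMC minus cortex, 1157 to 3408 in Ai14 aSMC minus astrocyte and 1430 to 3345 in Ai47 aSMC minus Ai14 aSMC, each lowest without an Ai14 aSMC library, and 2 to 3 of the 7 were called in Ai14 aSMC minus astrocyte. Rgs2 ranged from -0.74 to 0.29 and Rgs3 from -0.98 to 0.43 in Ai47 aSMC minus cortex. Rgs2 ranged from -0.81 to 0.56 and Rgs10 from -7.09 to 2.70 in Ai47 aSMC minus astrocyte. In Ai47 aSMC minus Ai14 aSMC Rgs3 ranged from -0.20 to 1.23, Rgs7 from -1.03 to 0.26, Rgs10 from -1.42 to 2.58 and Rgs16 from -1.78 to 0.44. Rgs10 ranged from -7.04 to 1.47 in Ai14 aSMC minus astrocyte, and Rgs2 from -0.66 to 0.71 in astrocyte minus cortex. Where leaving out a library put a group at 0, the size of an Rgs10 value depends on the small count that the fit adds.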
